A study of Rattus norvegicus with 35 samples.

Results

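Myclobutanil, a fungicide with a triazole ring, was compared at 100 uM with its vehicle in cultured primary hepatocytes of the rat, the main cells of the liver studied outside the body. The comparison holds 6 of the 35 arrays of the series: the 3 arrays whose titles name myclobutanil at 100 uM and the 3 that name DMSO, given at 0.1%. Cells were exposed for 72 h through the medium, and total RNA was hybridized to Affymetrix Rat Genome 230 2.0 arrays, where short probes grouped in a probe set read the transcript of a gene. Titles carry a code, Rs256, Rs293 or Rs304, and both groups have 1 array of each. The design text calls replicates biological, while the meaning of the code and the strain, sex and age of the rats are not given in the sources used here. Other groups enter below as reference points: myclobutanil at 10 and 30 uM, propiconazole and triadimefon at 100 uM, phenobarbital at 200 uM (3 arrays each) and PCN at 30 uM (2 arrays, with none of Rs256). Whether cells of several animals were pooled is not given either.

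Values are on a log-like scale whose base the sources do not state, so a change is given in units of that scale after quantile normalization, with no fold. As a guide to size, the control transcripts bioC, bioD and cre rose by 0.4875 units per doubling (SD 0.02405 over the 35 arrays) if they were added at the usual 5, 25 and 100 pM. Array values below are in the order Rs256, Rs293 and Rs304, and a change is the mean of the differences within the 3 codes, with its standard error (SE) from the fit. A gene was called when its p from limma, with the code as a block and adjusted over all 10490 genes tested, lay below 0.05, and only called genes are said to have risen or fallen. The brightest probe set stands for a gene: of 54 other probe sets of 37 called named genes, 48 had a change nearer 0 or of the opposite sign, 8 of them opposite. With no statement that the arrays came from separate animals, p-values speak only of the spread among these samples. That spread is what remains after group and code are taken out, pooled over all 35 arrays. Without the block, differences between codes count as spread too.

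As background, hepatocytes break down fatty acids in mitochondria and peroxisomes under the control of the receptor PPARalpha, and make cholesterol through a pathway that SREBP2 raises when sterols run low. Triazole fungicides act by inhibiting the sterol demethylase Cyp51 of fungi, an enzyme that mammals share. The receptors CAR and PXR sense foreign chemicals in the liver and raise cytochromes P450, conjugation enzymes and export pumps.

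With 100 uM myclobutanil 530 genes rose (5.05% of those tested) and 511 fell (4.87%). With the code as a block, these shares are the background for every list count below. The change had the same sign in all 3 codes for 529 of the genes that rose and 508 of those that fell. The 3 treated arrays lay wholly above the 3 DMSO arrays for 312 of the former and wholly below for 298 of the latter. Both sets of counts are among genes called on these same arrays, so they describe the calls and lend them no support. How many of all tested genes had separated groups was not counted. Most changes were small: 183 rises and 233 falls reached 0.25 units, 29 and 52 reached 0.5, and 2 and 4 reached 1. The median change over all genes tested was 0.005. The counts lean on the block and on the normalization. Without the block 67 genes rose (0.639%) and 60 fell (0.572%), all of them among the 1041, and on the values as deposited, with the block, 62 rose and 76 fell. With the code Rs304 left out 113 and 128 were called, with Rs256 left out 328 and 283, and with Rs293 left out 347 and 475. Of these totals of 241, 611 and 822 genes, 238, 491 and 609 were among the 1041. Of the 142 named genes that were called, 15 were called both without the block and on the values as deposited: Abcc2, Acat1, Acat2, Acot4, Angptl4, C6, Ces1d, Cyp2c6v1, Cyp4a1, Cyp4a3, Fabp1, Fads2, Fgf21, Scd2 and Txnip.

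**Figure D1:**
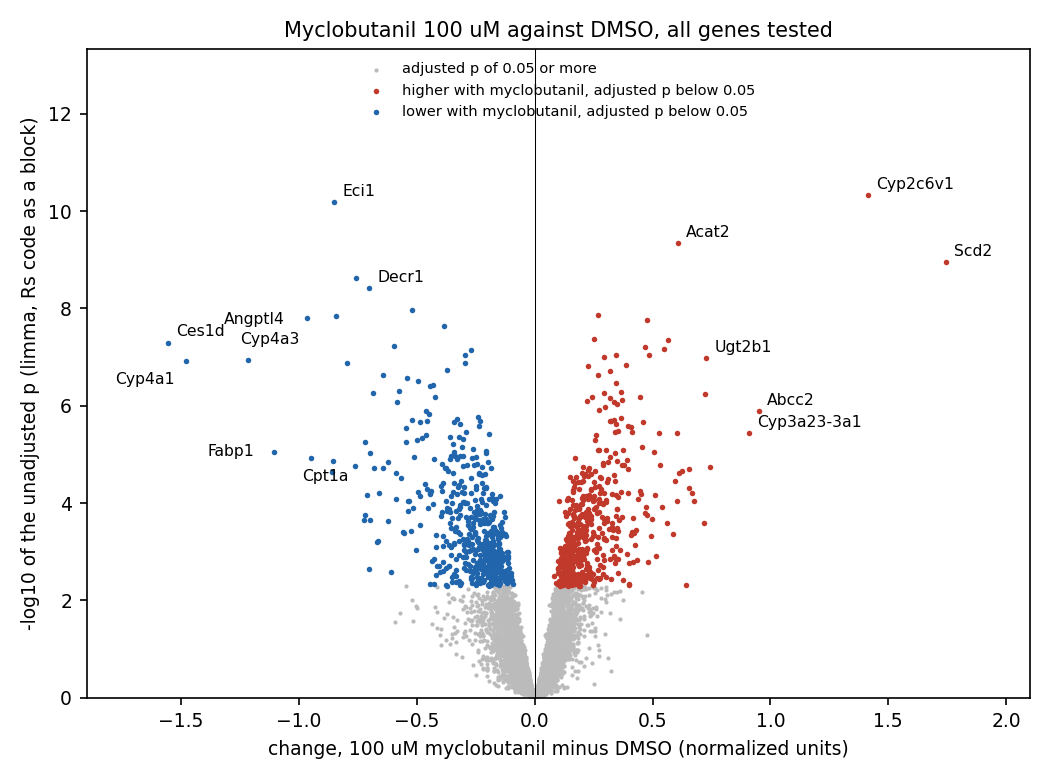
Each point is 1 of the 10490 genes tested; the horizontal axis is the change from DMSO to 100 uM myclobutanil in normalized units and the vertical axis is -log10 of the unadjusted p of the fit with the code as a block. Scd2 (1.74) and Cyp2c6v1 (1.42) lie farthest to the right and Ces1d (-1.56) and Cyp4a1 (-1.48) farthest to the left.

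Of the 15 genes with the largest falls, 7 bind, transport or oxidize fatty acids: Cyp4a1, Cyp4a3, Fabp1, Cpt1a, Eci1, Ech1 and Slc27a2. Cyp4a1, which hydroxylates the end of fatty acid chains, read 1.34, 1.92 and 2.07 in the DMSO arrays and -0.03, 0.43 and 0.50 in the treated arrays. Every treated array lay below every DMSO array, and the change was -1.48 (SE 0.202, adjusted p = 4.77e-05). Its relative Cyp4a3 went from 2.73, 2.73 and 2.89 to 1.64, 1.39 and 1.67, again with no overlap between the groups (-1.21, SE 0.166, adjusted p = 4.77e-05). Probe sets of such close relatives may share signal. In the list of Cyp4 and peroxisomal genes, 8 of 18 tested members fell and 0 rose, with a median of -0.18 beside 0.005 over all genes. The thioesterase Acot4 fell by 0.54 and Ehhadh, a peroxisomal enzyme that carries out 2 successive steps of the oxidation cycle, by 0.67. The acyltransferase Crot, which hands shortened chains from peroxisomes to carnitine, fell by 0.33, and Acot3 by 0.23. Without the block 3 of these 8 falls stayed called.

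Mitochondrial fatty acid oxidation moved the same way. Of 21 tested members, 15 fell, 0 rose and all 21 had a negative change, with a median of -0.26. Cpt1a, the enzyme that commits long-chain fatty acids to mitochondria, read 0.72, 1.80 and 1.73 with DMSO and 0.28, 0.51 and 0.62 with myclobutanil. The groups did not overlap, but the DMSO array of Rs256 stood 1.01 units below the next DMSO array, and the change within that code was -0.44 against -1.29 and -1.11. The mean fall of 0.95 (SE 0.174, adjusted p = 0.00104) was not called without the block (adjusted p = 0.187), and a second Cpt1a probe set changed by -0.34. Eci1, which moves double bonds of unsaturated fatty acids into place for oxidation, went from 2.65, 2.91 and 3.05 to 1.80, 2.04 and 2.21. Its change was nearly the same in each code (-0.85, -0.87 and -0.84; adjusted p = 3.46e-07), although a weaker second probe set of the gene, never above the array median, changed by 0.03. Decr1, a reductase of the same branch, fell by 0.70 (adjusted p = 6.73e-06), and the thiolase Acaa2 by 0.52 (adjusted p = 1.58e-05), with a second probe set at -0.14. Hadh fell by 0.49, Acat1, a thiolase that also serves ketone bodies, by 0.46, and the dehydrogenase Acadl by 0.38, and dimmer probe sets of Hadh and Acat1 changed by -0.06 and -0.21. Ech1, an isomerase outside the list that was named by the size of its fall, went down by 0.84. Without the block 9 of the 15 falls were called, on the values as deposited 2, and with each code left out in turn 9 to 13.

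Among genes around PPARalpha itself, several carriers and secreted factors fell, 1 carrier rose, and the receptor did not pass the test. Of 23 tested members of this list, 13 fell, 1 rose and 9 did not pass, with a median of -0.29. Without the block 4 fell and 1 rose. Fabp1, the main fatty acid binding protein of the liver cell, read 1.37, 2.03 and 1.95 with DMSO and 0.81, 0.24 and 0.98 with myclobutanil. All treated arrays were lower, by 0.55 units in Rs256 and by 1.79 in Rs293 (mean -1.11, SE 0.199, adjusted p = 0.000884). Angptl4, a secreted inhibitor of lipoprotein lipase, went from 2.14, 2.21 and 2.07 to 0.99, 1.29 and 1.24, a change of -0.97 (adjusted p = 1.65e-05). The groups were well apart, and the spread within each was small (SD 0.072 and 0.165, n = 3 each). Fgf21, a hormone of the fasting liver, read 1.60, 1.98 and 1.48 and then 0.81, 0.95 and 1.25, and fell by 0.68 (adjusted p = 0.000133). The fatty acid transporter Slc27a2 fell by 0.80 and the pantetheinase Vnn1 by 0.58. The membrane-bound transcription factor Creb3l3 fell by 0.72 and Pdk4, which restrains glucose oxidation, by 0.70 (adjusted p = 0.0295; -0.27 in a second probe set). Ppara, the receptor, was 0.22, 0.13 and 0.34 with DMSO and 0.16, 0.30 and 0.32 with myclobutanil, groups that overlap (change 0.03, interval -0.11 to 0.17, adjusted p = 0.829). Fabp5, a fatty acid binding protein better known from skin and immune cells, was the member that rose, from 2.12, 1.89 and 1.89 to 2.86, 2.38 and 2.50 (adjusted p = 0.00159).

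The Fabp1 promoter is shown because direct repeats of AGGTCA with 1 base between the copies are the classical binding letters of PPARalpha with its partner RXR. The 250 bases before the RefSeq start (build GRCr8) were searched on either strand. None of the 29 genes with a promoter among the 36 called falls of these lists held the exact repeat, which 0.0508% of all 33469 promoters held. When the fourth base of the first copy was left free, Fabp1 alone among the 29 had a match, against 0.0866% of all promoters. That looser pattern was the 7th of 10 tried and was chosen after the exact one had given no match. The stretch lies at chr4:104749240-104749299 on the plus strand, 100 to 41 bases before the start, with the match in capitals, which reads as the repeat on the opposite strand.
Fabp1: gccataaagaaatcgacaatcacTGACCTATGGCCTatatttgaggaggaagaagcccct

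Most genes of cholesterol synthesis rose. Of 18 tested members, 13 rose and 0 fell, with a median of 0.34 beside 0.005 over all genes. Acat2, which joins acetyl-CoA units at the entry of the pathway, read 1.02, 0.96 and 1.02 with DMSO and 1.46, 1.73 and 1.62 with myclobutanil. The DMSO arrays lay within 0.06 units of each other and every treated array stood clear of them (change 0.61, SE 0.0614, adjusted p = 1.6e-06). Cyp51, the mammalian counterpart of the fungicide target, went from 2.18, 2.43 and 2.34 to 2.61, 2.96 and 2.70, higher in each code by 0.43, 0.53 and 0.36 (mean 0.44, SE 0.0933, adjusted p = 0.00343). A second probe set of Cyp51 changed by 0.36 (SE 0.0758). Tm7sf2, a reductase that acts on the product of Cyp51, went from 1.06, 1.38 and 1.14 to 1.54, 2.07 and 1.66, a rise of 0.56 (adjusted p = 3.36e-05). Pmvk, a kinase of the mevalonate segment, rose by 0.34 and Fdft1, squalene synthase, by 0.34. Sqle, which oxidizes squalene, rose by 0.30 and Sc5d, a desaturase of the late steps, by 0.39. The changes of the 18 ran from -0.05 to 0.61. Without the block 6 of the 13 rises were called, on the values as deposited 3, and with each code left out in turn 8 to 14 members were called higher.

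Of the genes that sense or move cholesterol, 3 of 17 tested rose and 1 fell (1 and 0 without the block), and the list median was -0.01. Insig1, which holds the SREBP complex in the endoplasmic reticulum and is itself raised by it, went from 2.91, 2.68 and 2.77 to 3.30, 3.40 and 3.12, with no overlap (change 0.49, adjusted p = 4.37e-05). Stard4, a carrier of cholesterol between membranes, rose by 0.27, and Npc2, which frees cholesterol from lysosomes, by 0.19 (adjusted p = 0.0456). Lcat, the plasma enzyme that esterifies cholesterol on lipoproteins, read 1.40, 1.54 and 1.11 and then 1.10, 0.57 and 0.43, and fell by 0.65 (adjusted p = 0.00136).

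Sterol gene promoters are shown because these genes rose together. Of the 13 that rose, 10 had a promoter in the RefSeq table, and 8 of the 10 (80%) held CCAAT on either strand. The share was 34% of all promoters and 37.9% of the 29 fatty acid genes above. A gene counted when any of its promoters matched, whereas the 34% counts each promoter singly. None of the 10 held TCACNCCAC, a form of the sterol regulatory element, which 0.974% of all promoters held. These were 2 of the 10 patterns tried, and CCAAT was singled out after its matches were seen. Only letters were searched, and promoters differ in base composition. The stretches are those of the 4 matching genes with the largest rises, of which Ebp and Lss were named after their values had been seen, from 5′ to 3′ along the gene, with the match in capitals, where ATTGG is CCAAT read on the other strand. They lie at chr1:212789598-212789657 (minus strand) for Tm7sf2, chr8:51538332-51538391 (minus) for Sc5d, chrX:16971350-16971409 (plus) for Ebp and chr20:12118280-12118339 (minus) for Lss, in each within 120 bases of the start.
Tm7sf2: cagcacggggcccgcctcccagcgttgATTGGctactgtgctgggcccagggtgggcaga
Sc5d: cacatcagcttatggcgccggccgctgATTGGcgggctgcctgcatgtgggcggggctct
Ebp: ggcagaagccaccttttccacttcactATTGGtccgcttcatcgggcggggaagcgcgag
Lss: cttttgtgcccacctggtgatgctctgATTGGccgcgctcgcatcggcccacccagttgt

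Scd2 had the largest rise of all genes tested. It encodes a stearoyl-CoA desaturase, which places the first double bond in a saturated fatty acid. Its arrays read 0.59, 0.90 and 0.05 with DMSO and 2.21, 2.74 and 1.83 with myclobutanil, so the lowest treated array stood above the highest DMSO array by 0.93 units. The change was 1.74 (SE 0.185, adjusted p = 2.97e-06), and its other 3 probe sets, which are dimmer, changed by 0.28 to 0.86. Scd, the more abundant desaturase of adult liver, was 3.62, 3.55 and 3.20 and 3.72, 3.62 and 3.53, with overlapping groups (change 0.17, interval 0.02 to 0.32, adjusted p = 0.164). The polyunsaturated desaturases Fads1 and Fads2 rose by 0.60 (adjusted p = 0.000464) and 0.45 (adjusted p = 0.00015), and the elongase Elovl6 by 0.30. Elovl2, which extends polyunsaturated chains, fell by 0.29. In total 4 of 11 tested desaturases and elongases rose and 1 fell (2 and 0 without the block).

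In fatty acid and triglyceride synthesis 3 of 19 tested members rose and 0 fell (0 and 0 without the block). Acss2, which makes acetyl-CoA from acetate, rose from 2.10, 1.70 and 1.67 to 2.56, 2.46 and 2.10, by 0.55 within codes (adjusted p = 3.92e-05). The Rs304 treated array did not exceed the Rs256 DMSO array. Pnpla3, a lipase of lipid droplets that is raised with lipogenesis, rose by 0.44 and the acyltransferase Agpat3 by 0.17, although 4 other Agpat3 probe sets changed by 0.00 to 0.06 and 1 by 0.12.

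Of 22 tested lipases and lipid droplet genes 6 fell and 1 rose (1 and 1 without the block), and 15 did not pass. Ces1d, a carboxylesterase that hydrolyses stored triglyceride, had the largest fall of all genes tested, from 1.77, 1.32 and 1.71 to -0.16, 0.03 and 0.27. The highest treated array lay 1.05 units under the lowest DMSO array (change -1.56, SE 0.202, adjusted p = 3.54e-05). The related Ces1c fell by 0.32, with 0.03 in a second probe set that was never above the array median, hepatic lipase Lipc by 0.36 and the droplet protein Cidec by 0.39. Plin2, the main droplet coat protein of the liver, fell by 0.33 (adjusted p = 0.00109; -0.13 in a second probe set), whereas Plin3, a related coat protein, rose by 0.32 (adjusted p = 0.00103). Among 15 apolipoproteins and assembly factors tested, Apoa4 and Apoa1 rose by 0.25 and 0.11 and Apom and Apoh fell by 0.34 and 0.21, none of them called without the block.

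**Figure D2:**
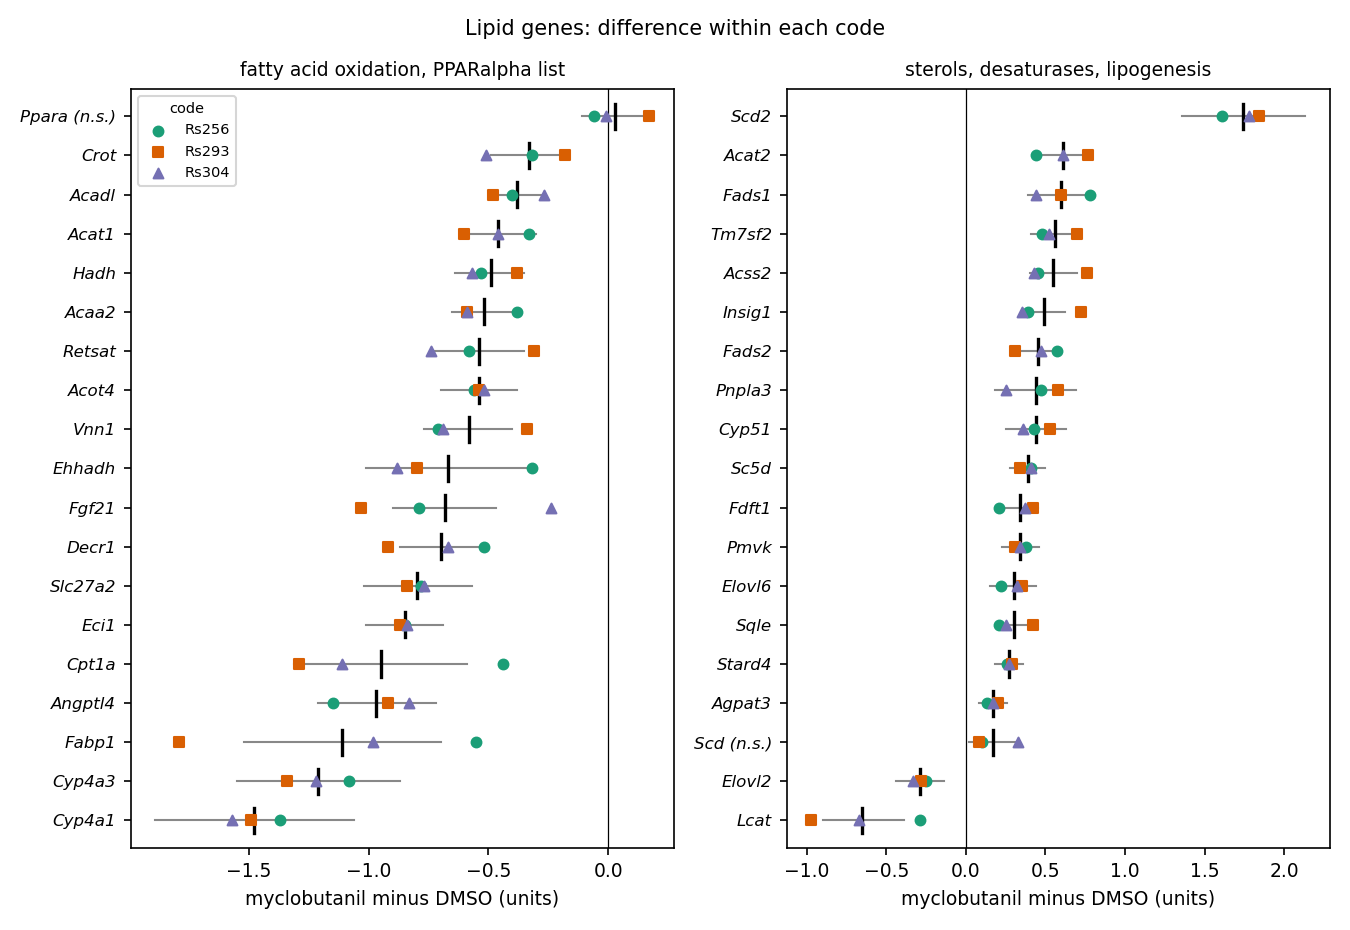
Differences between 100 uM myclobutanil and DMSO within the codes Rs256 (circle), Rs293 (square) and Rs304 (triangle), in normalized units; the black bar is the mean, the grey line its 95% interval from the fit, and n.s. marks an adjusted p of 0.05 or more. All fatty acid genes but Ppara lie left of 0 in every code, and Fabp1 and Cpt1a spread most between codes.

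Of 32 tested cytochromes P450 and related oxidases, 4 rose and 8 fell, beside 5.05% and 4.87% of all genes, with a median of 0.02. Without the block 2 and 1 were called. Cyp2c6v1, a P450 of the family that CAR activators raise, read 1.93, 1.42 and 0.92 with DMSO and 3.27, 2.78 and 2.47 with myclobutanil. The arrays within each group spread widely (SD 0.502 and 0.401), but each code showed almost the same rise (1.34, 1.36 and 1.55; mean 1.42, adjusted p = 3.46e-07). Cyp3a23-3a1, the classical target of PXR, went from 3.32, 2.52 and 2.52 to 3.69, 3.72 and 3.68. The treated arrays met at one level, so the rise was 0.37 in Rs256, whose DMSO array was already high, and 1.20 and 1.16 in the other codes (mean 0.91, SE 0.154, adjusted p = 0.000464). Cyp3a2 went from 0.13, -0.27 and -0.27 to 1.01, 0.42 and 0.39, a rise of 0.74 (adjusted p = 0.00136, or 0.227 without the block). P450 genes of one subfamily are near copies, and their probe sets can share signal. No value is given for Cyp2b1 and Cyp2b2, the best known targets of CAR, because their probe set names several genes.

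Other members of this list went the opposite way. Aldh1a1, a dehydrogenase that makes retinoic acid, read 2.08, 2.43 and 2.41 and then 1.96, 1.76 and 1.50, and fell by 0.56 (adjusted p = 0.00184) with only 0.11 in Rs256. The largest fall of this list was that of Cyp2d3, named after its value had been seen. It fell by 0.71 (adjusted p = 0.00303, or 0.255 without the block). Cyp2a2 fell by 0.44 and Cyp2c13, a male-specific P450, by 0.34. Cyp2c11, the main male P450 of rat liver, was 2.78, 2.64 and 2.96 with DMSO and 2.75, 2.76 and 3.03 with myclobutanil, overlapping groups with a change of 0.05 (interval -0.11 to 0.21, adjusted p = 0.76). Cyp1a1, the marker of the dioxin receptor AhR, changed by 0.14 (interval -0.04 to 0.32, adjusted p = 0.368), and 0 of 9 tested AhR targets were called.

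In the list of electron and heme supply to P450, which also holds heme breakdown, 6 of 19 tested members rose and 1 fell (1 and 0 without the block). The largest rise was that of Hmox1, which degrades heme and is described with the stress genes, and Blvrb, a reductase of the same breakdown route, rose by 0.31. Por, the reductase that supplies P450 with electrons, went from 2.37, 2.19 and 2.31 to 2.80, 2.69 and 2.57, with no overlap (change 0.40, adjusted p = 0.00142, or 0.0648 without the block). Cytochromes b5 Cyb5a and Cyb5b rose by 0.24 and 0.16, although a second Cyb5b probe set changed by -0.04. Alas1, the first enzyme of heme synthesis, was higher in each code (0.59, 0.31 and 0.19) but did not pass the test (mean 0.36, SE 0.15, adjusted p = 0.141). Fech, the last enzyme of that pathway, fell by 0.24 (adjusted p = 0.000297).

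Of 36 tested conjugation enzymes 5 rose and 4 fell (2 and 1 without the block), beside 5.05% and 4.87% of all genes. Ugt2b1, a glucuronosyltransferase, went from 2.55, 2.31 and 2.50 to 2.99, 3.32 and 3.23, with every treated array higher (change 0.73, SE 0.0984, adjusted p = 4.62e-05). The glutathione transferases Gstk1 and Gsta4 rose by 0.65 and 0.41 and Gsto1 by 0.19, while Gstp1 read 1.68, 2.08 and 2.22 and 2.13, 1.53 and 2.34 and did not pass (change 0.01, interval -0.36 to 0.38). The sulfotransferase Sult1a1 fell by 0.32 and the acetyltransferase Nat1 by 0.35. Among 23 tested transporters 4 rose and 3 fell (1 and 0 without the block), beside the same shares of all genes. Abcc2, the pump that exports conjugates into bile, went from 2.44, 1.78 and 2.39 to 3.12, 3.22 and 3.12; the treated arrays were alike and the low DMSO array of Rs293 gave that code the largest rise, 1.44 (mean 0.95, SE 0.15, adjusted p = 0.000239). The exporter Abcb1a rose by 0.31, Abcb11, the bile salt pump, by 0.29 and Abcb6 by 0.16, whereas the uptake carriers Slco1a1 and Slco1b2 fell by 0.37 and 0.23 and the bile acid carrier Slc10a2 by 0.54.

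Of 31 tested nuclear receptors and cofactors 3 rose and 1 fell, none without the block, beside 5.05% and 4.87% of all genes. Nr1i2, which encodes PXR, was 1.33, 0.95 and 1.10 with DMSO and 1.14, 0.95 and 0.99 with myclobutanil (change -0.10, interval -0.29 to 0.09, adjusted p = 0.564). Nr1i3, which encodes CAR, was 0.71, -0.06 and 0.08 and 0.38, -0.12 and -0.16, lower in each code without passing the test (change -0.21, adjusted p = 0.161). Rarb, a retinoic acid receptor, rose by 0.32, Ppard by 0.24 and Esrra by 0.16. Nr2f2 fell by 0.25, but its other probe sets changed by -0.07 and 0.03.

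Some stress genes rose. Of 24 tested targets of NRF2, the factor that answers oxidants, 6 rose and 0 fell (1 and 0 without the block), with a median of 0.05. Hmox1, which degrades heme, read 2.50, 1.35 and 1.38 with DMSO and 2.94, 2.14 and 2.30 with myclobutanil. Its groups overlap, the DMSO array of Rs256 being high, while each code was higher, by 0.44, 0.80 and 0.92 (mean 0.72, adjusted p = 0.000135, or 0.648 without the block). Slc7a11, the cystine importer, rose by 0.41, the pentose phosphate enzyme Tkt by 0.45 and Srxn1 by 0.24. Nqo1, a marker of this response, was 1.69, 1.75 and 1.62 and 2.06, 1.67 and 1.48, higher in Rs256 and lower in the other codes (change 0.05, interval -0.14 to 0.23, adjusted p = 0.806).

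Of 36 tested genes of endoplasmic reticulum stress and the ATF4 response, 10 rose and 0 fell, with a median of 0.09, but 0 were called without the block and 1 on the values as deposited. Sdf2l1, a chaperone cofactor, went from 0.56, 0.84 and 0.98 to 1.28, 1.11 and 1.35 with no overlap, a rise of 0.46 (adjusted p = 0.000767). Vldlr, a lipoprotein receptor that ATF4 raises, went up by 0.56, with 0.08, 0.36 and 0.47 in its other probe sets. Ddit3, the stress factor CHOP, rose by 0.33 (adjusted p = 0.0108) and the amino acid transporter chain Slc3a2 by 0.29. Dnajc3 rose by 0.23 and the sensor Atf6 by 0.14. Lysosomal genes rose in 9 of 28 tested members and fell in 1 (3 and 0 without the block, 0 and 0 on the values as deposited). Among the rises were the membrane protein Gpnmb (0.45), the membrane protein Scarb2 (0.35), the calcium channel Mcoln1 (0.29) and the proteases Ctsd (0.28), Tpp1 (0.25) and Ctsa (0.17). Of 15 tested p53 targets 1 rose, Sfn by 0.24 (0 without the block), beside 5.05% of all genes. Of 19 tested cell cycle genes 0 were called.

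Bile acid genes mostly fell where they changed, 6 of 19 tested against 1 that rose (1 and 0 without the block). Cyp8b1, which sets the share of cholic acid, read 1.94, 0.70 and 0.81 with DMSO and 0.72, 0.00 and 0.15 with myclobutanil. It fell in each code, though the treated Rs256 array still reached the level of the lower DMSO arrays (change -0.86, SE 0.166, adjusted p = 0.00155, or 0.547 without the block). Baat, which joins bile acids to amino acids, went from 1.84, 2.02 and 2.37 to 1.27, 1.49 and 1.38, a fall of 0.70 (adjusted p = 0.000919). Slc27a5, the bile acid CoA ligase, fell by 0.61 and the sterol carrier Scp2 by 0.23. Cyp7a1, which catalyses the first and rate-limiting step towards bile acids, was near the array median in both groups, 0.03, 0.07 and 0.28 and 0.39, 0.27 and -0.07 (change 0.07, SE 0.254, adjusted p = 0.908).

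In steroid metabolism 3 of 19 tested genes fell and 0 rose (0 and 0 without the block): Cyp17a1, a steroid hydroxylase, by 0.55, Hsd3b5 by 0.35 and Hsd17b10, a mitochondrial dehydrogenase, by 0.31. In retinoid metabolism 6 of 24 fell and 2 rose (1 and 0 without the block). Rdh7, a retinol dehydrogenase, went from 2.18, 1.78 and 1.48 to 1.33, 0.97 and 0.86 (change -0.76, adjusted p = 0.00128, or 0.331 without the block), and Retsat, a retinol saturase, fell by 0.54. Dhrs4 fell by 0.23 and Rdh10 by 0.18, while a second probe set of each changed by 0.05 and 0.03. Rbp4, the plasma carrier of retinol, fell by 0.21, a change of 0.01 when arrays were centred and scaled instead.

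Plasma protein genes of the complement and coagulation list fell in 13 of 30 tested members and rose in 2 (3 and 0 without the block), with a median of -0.17. C4bpa, a complement inhibitor, went from 2.63, 2.97 and 2.67 to 2.25, 2.17 and 1.98, with no overlap (change -0.62, adjusted p = 0.00117). The membrane attack proteins C8b, C6 and C8a fell by 0.44, 0.30 and 0.27. Klkb1, plasma prekallikrein, rose by 0.54 and Pros1, an anticoagulant cofactor, by 0.26. In the acute phase list 2 of 25 rose and 3 fell (1 and 0 without the block), beside 5.05% and 4.87% of all genes. Crp went from 3.02, 3.09 and 2.90 to 3.43, 3.29 and 3.31, a rise of 0.34 (adjusted p = 0.00207). Serpina3c rose by 0.33 and Serpina3m fell by 0.33. Haptoglobin Hp and hemopexin Hpx changed by -0.14 and -0.16 in the quantile-normalized fit and by 0.04 and 0.00 on the values as deposited, so their direction was not settled. Of 23 tested chemokine and inflammation genes 2 rose and 2 fell (0 and 0 without the block), beside the same shares of all genes. In this list 19 of the 23 changes were negative, with a median of -0.14. The interferon-induced chemokine Cxcl9 rose from 0.25, 0.54 and 0.64 to 0.96, 1.09 and 1.53 (adjusted p = 0.00694), the defensin Defb1 by 0.64 (adjusted p = 0.0498), and Tnfaip3, an inhibitor of NF-kB, fell by 0.36 and Gbp2 by 0.20.

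Amino acid and urea cycle genes changed in both directions, 6 of 53 tested up and 7 down, beside 5.05% and 4.87% of all genes. Without the block 0 were called. Aass, the first enzyme of lysine breakdown, rose by 0.48, and the urea cycle enzyme Asl by 0.37 (adjusted p = 0.000843). Oat and Gcsh rose by 0.29 and 0.22, whereas Glud1, glutamate dehydrogenase, fell by 0.32 and Kmo by 0.17. In glucose metabolism 6 of 36 rose and 3 fell (1 and 0 without the block). Besides Tkt, Slc2a1, a glucose transporter, rose by 0.29, Pfkfb3 by 0.22 and Aldoa by 0.21, while the gluconeogenic enzyme Fbp1 fell by 0.29. Mitochondrial respiration (34 tested) and ribosomal proteins (22 tested) had 0 calls, with medians of -0.07, whose sign turned under another scaling, and 0.01.

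Several genes with large changes belong to none of these lists. Ccn2, a secreted target of YAP and TGF-beta, fell from 2.84, 3.31 and 3.05 to 1.59, 2.60 and 2.45 (adjusted p = 0.00117), with the largest fall, 1.25, in Rs256. Beside it, Tagln, a stellate and smooth muscle marker named after its value had been seen, was -0.08, 1.19 and 0.34 with DMSO and -0.20, 0.14 and -0.12 with myclobutanil (change -0.54, adjusted p = 0.0509), and it was lower at 100 than at 10 uM by 0.60 (adjusted p = 0.0426). The part of such cells in the fall of Ccn2 was not tested. Txnip, which restrains thioredoxin and glucose uptake, went from 1.85, 1.96 and 1.84 to 1.18, 1.24 and 1.06, 2 tight and separate groups (change -0.72, adjusted p = 0.000634). The membrane protein Tm4sf4 fell by 0.76. Ggt1, which cleaves extracellular glutathione, rose by 0.67, Ero1a, an oxidase of protein folding, by 0.65, Gadd45b, a stress-inducible gene, by 0.62 and Lrmda by 0.68.

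**Figure D3:**
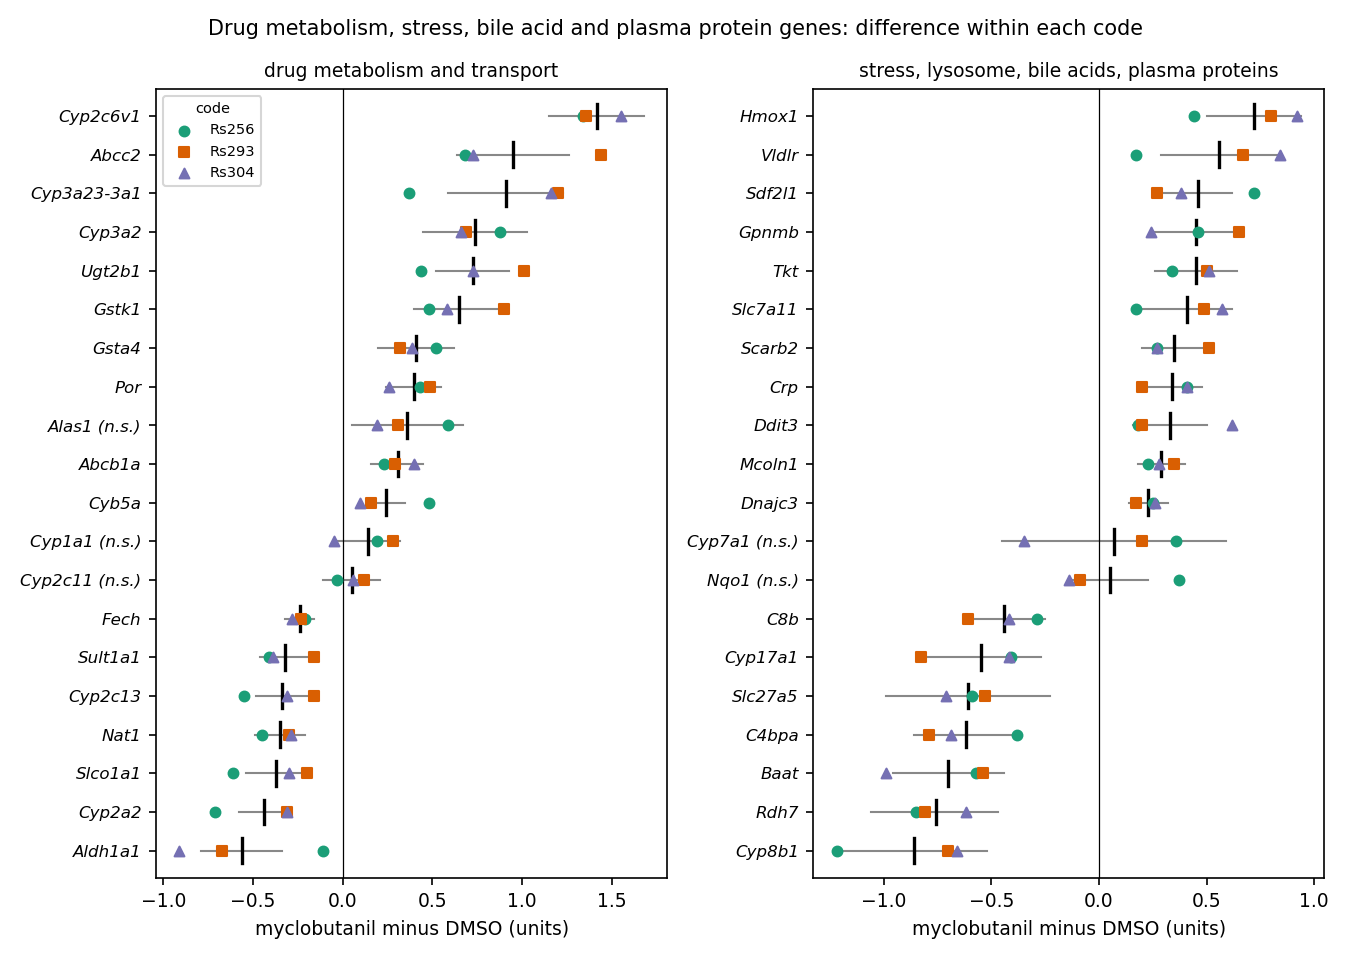
Differences between 100 uM myclobutanil and DMSO within the codes Rs256 (circle), Rs293 (square) and Rs304 (triangle), in normalized units; the black bar is the mean, the grey line its 95% interval from the fit, and n.s. marks an adjusted p of 0.05 or more. Cyp2c6v1 stands farthest right with codes close together, while Nqo1 and Cyp7a1 have codes on both sides of 0.

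The cells carried hepatocyte transcripts in both groups. Of 14 tested hepatocyte markers, 1 rose (Apoa1) and 1 fell, beside 5.05% and 4.87% of all genes. Their summed level ran from 38.9 to 41.8 over the DMSO arrays and from 38.1 to 42.2 over the treated arrays. Alb, albumin, was held at the top value of every array by the normalization and was not measured. It is still counted in the 14 and adds a constant part to each sum. Of other cell types, 6 of 12 macrophage markers on the array, 8 of 12 stellate cell, 2 of 8 endothelial, 4 of 7 cholangiocyte, 1 of 7 lymphocyte and 0 of 2 neutrophil markers were bright enough to test, and 0 of these were called. Summed macrophage markers ran from 2.14 to 4.20 with DMSO and from 2.50 to 4.82 with myclobutanil, and stellate cell markers from 0.25 to 2.26 and from -0.41 to 0.68, ranges that overlap. These sums were not compared within the codes, so overlap does not show that they were unchanged. No single stellate marker was called. Tagln (given with Ccn2 above) had the largest change and was lower in each code. The part of such cells in the results was not tested, and in RNA from whole cultures fewer cells of a type and less RNA per cell cannot be told apart. The 3′ minus 5′ signal of the control probe sets of Actb and Gapdh, a sign of RNA integrity, differed by -0.04 (exact permutation p = 0.7) and 0.01 (exact permutation p = 1) between the groups, two-sided, where 3 arrays against 3 allow no p under 0.1. Array SDs as deposited were 0.672 to 0.707 in the 6 arrays and 0.646 to 0.941 in all 35.

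At the lower doses few genes were called. Against DMSO, 2 genes were called at 30 uM (0.0191%): Cyp2c6v1 (change 1.38) and Ugt2b1 (0.73). At 10 uM 1 gene was called (0.00953%), Cyp2c6v1 (0.89). An unadjusted p under 0.05 was found for 2375 genes at 100 uM, 532 at 30 uM and 61 at 10 uM, where 524 would fall there by the threshold alone. The 61 lie far under that number, so p-values of the fit ran high at 10 uM, for a reason that was not tested. Few calls at the lower doses thus do not show that genes were unchanged. The doses share the 3 DMSO arrays, so direct contrasts between doses, which use no DMSO array, carry the comparison. Between 100 and 30 uM 35 genes were higher at 100 uM (0.334%) and 35 lower (0.334%). Between 100 and 10 uM, a contrast added after the data had been seen, 366 were higher (3.49%) and 312 lower (2.97%). Without Rs304 these totals of 70 and 678 became 0 and 62, without Rs256 24 and 455, and without Rs293 26 and 604. On the values as deposited they were 0 and 57.

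Scd2 read 1.43, 1.69 and 0.80 at 30 uM and 0.90, 1.03 and 0.34 at 10 uM, so it was higher at each dose step in every code, and it differed between 100 and 30 uM by 0.95 (SE 0.185, adjusted p = 0.0168). Acat2 was 1.08, 1.18 and 1.08 at 30 uM, close to its DMSO level, and differed from 100 uM by 0.49 (adjusted p = 0.000279). In the sterol synthesis list 5 of 18 genes were higher at 100 than at 30 uM and 13 were higher than at 10 uM. Besides Acat2, the 5 were Tm7sf2, Fdft1, Sqle and Sc5d, higher at 100 than at 30 uM by 0.33, 0.29, 0.23 and 0.23, and Insig1 was higher by 0.37. Among falling genes, Eci1 (-0.56, adjusted p = 0.000906), Angptl4 (-0.70), Cyp4a3 (-0.75) and Ces1d (-0.85) were lower at 100 than at 30 uM. For Cyp2c6v1 the values were 2.74, 2.11 and 2.08 at 10 uM and 3.17, 2.59 and 2.63 at 30 uM, and the difference between 100 and 30 uM was 0.04 (interval -0.22 to 0.30, adjusted p = 0.956). It was lower at 10 uM than at 100 uM (difference 0.53, adjusted p = 0.0142). For Ugt2b1 the difference between 100 and 30 uM was 0.00 (interval -0.21 to 0.20) and for Cyp3a23-3a1 0.08 (interval -0.23 to 0.40). Whether the dose dependence of Cyp2c6v1 differs from that of Scd2 was not tested.

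**Figure D4:**
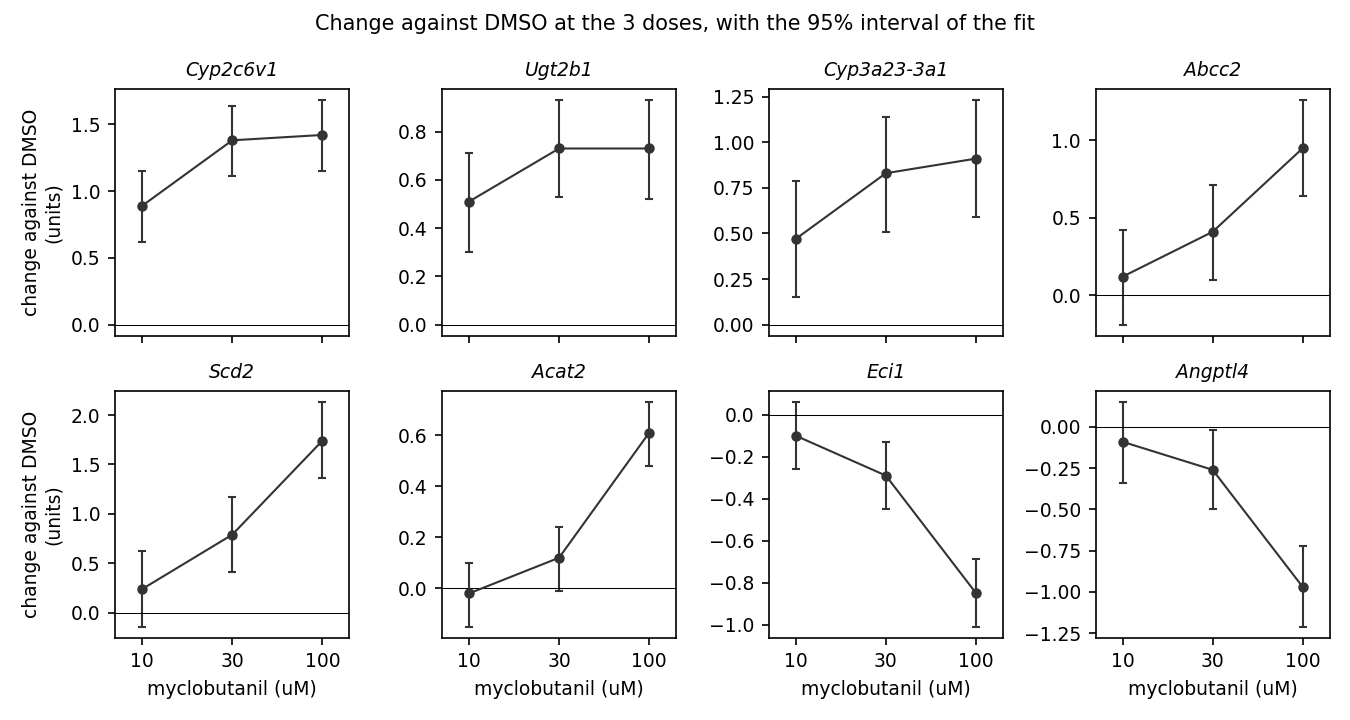
Change against the 3 DMSO arrays in normalized units at 10, 30 and 100 uM myclobutanil (doses evenly spaced on the axis), with the 95% interval of the fit; vertical scales differ between genes. At 30 uM Cyp2c6v1 stands at 1.38 and Ugt2b1 at 0.73, both called there, and Cyp3a23-3a1 at 0.83, which did not pass; at 100 uM Scd2, Acat2, Eci1 and Angptl4 stand at 1.74, 0.61, -0.85 and -0.97.

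The positive controls of the series, phenobarbital, a CAR activator, and the PXR activator PCN, are set beside myclobutanil by their changes against the same DMSO arrays, so the agreement of such values is no result. With phenobarbital 2 genes were called against DMSO (0.0191%) and with PCN 3 (0.0286%). Cyp2c6v1 was among both, with changes of 1.28 (adjusted p = 3.77e-06) and 1.22 (adjusted p = 9.83e-05). So was Ugt2b1, with changes of 0.71 (adjusted p = 0.0008) and 0.68 (adjusted p = 0.0116). The others given here did not pass. Cyp3a23-3a1 differed from DMSO by 0.68 and 0.65 (adjusted p = 0.297 and 0.502), Scd2 by 0.64 and 0.66 (adjusted p = 0.563 and 0.709) and Cyp4a1 by -0.72 and -0.71 (adjusted p = 0.499 and 0.709). For Acat2 the values were 0.04 and 0.14, and for Cyp51 0.00 and 0.00. Their doses, 200 and 30 uM, differ from that of myclobutanil, and they were not tested against it.

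Propiconazole and triadimefon, triazole fungicides that carry a dioxolane ring and a ketone where myclobutanil has a nitrile, were compared with it directly at 100 uM, which uses no DMSO array. These are 2 compound pairs, each adjusted over all genes tested. Against propiconazole 338 genes were higher with myclobutanil (3.22%) and 406 lower (3.87%). The total of 744 was 78 without the block, 91 on the values as deposited, and 56, 378 and 503 without Rs304, Rs293 and Rs256. Gstp1 differed by -1.21 (SE 0.18, adjusted p = 0.000228), Sfn by -1.11 (adjusted p = 1.82e-10) and Akr1b8, an aldo-keto reductase, by -0.97 (adjusted p = 0.00265). Nqo1 was lower with myclobutanil by 0.73 and in the NRF2 list 9 of 24 genes were lower and 0 higher. Genes of fatty acid oxidation were higher with myclobutanil than with propiconazole in 9 of 21 mitochondrial and 7 of 18 Cyp4 and peroxisomal members, and lower in 0. Angptl4 differed by 0.89 (adjusted p = 5.07e-05), Cyp4a3 by 0.80 and Eci1 by 0.69. Ugt2b1 and Cyp2c11 were higher with myclobutanil by 0.54 and 0.59.

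Other genes were not told apart from propiconazole at this precision. The difference was 0.10 for Cyp2c6v1 (interval -0.16 to 0.37), 0.12 for Cyp3a23-3a1 (-0.20 to 0.43) and 0.00 for Abcc2 (-0.31 to 0.30). For Scd2 it was -0.26 (-0.65 to 0.12) and for Cyp51 -0.09 (-0.29 to 0.10), while Acat2 was lower with myclobutanil by 0.22 (adjusted p = 0.029). Against triadimefon 1 gene was called (0.00953%), the desaturase Fads2, which was lower with myclobutanil (-0.40, interval -0.54 to -0.26, adjusted p = 0.0358). This call was lost without the block, on the values as deposited and without Rs256 or Rs304, while 19 genes were called without Rs293, and 687 genes had an unadjusted p under 0.05. Intervals against triadimefon ran -0.11 to 0.41 for Cyp2c6v1, -0.72 to 0.05 for Scd2, -0.69 to 0.14 for Cyp4a1, -0.17 to 0.09 for Acat2 and -0.12 to 0.27 for Cyp51. Some other named genes had intervals that left out 0 although they were not called. These ran -1.06 to -0.32 for Gstp1, -0.51 to -0.18 for Eci1, -0.46 to -0.09 for Nqo1 and 0.23 to 0.85 for Alas1. The intervals are not adjusted for the number of genes, so few calls do not show that the 2 compounds act alike.

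**Figure D5:**
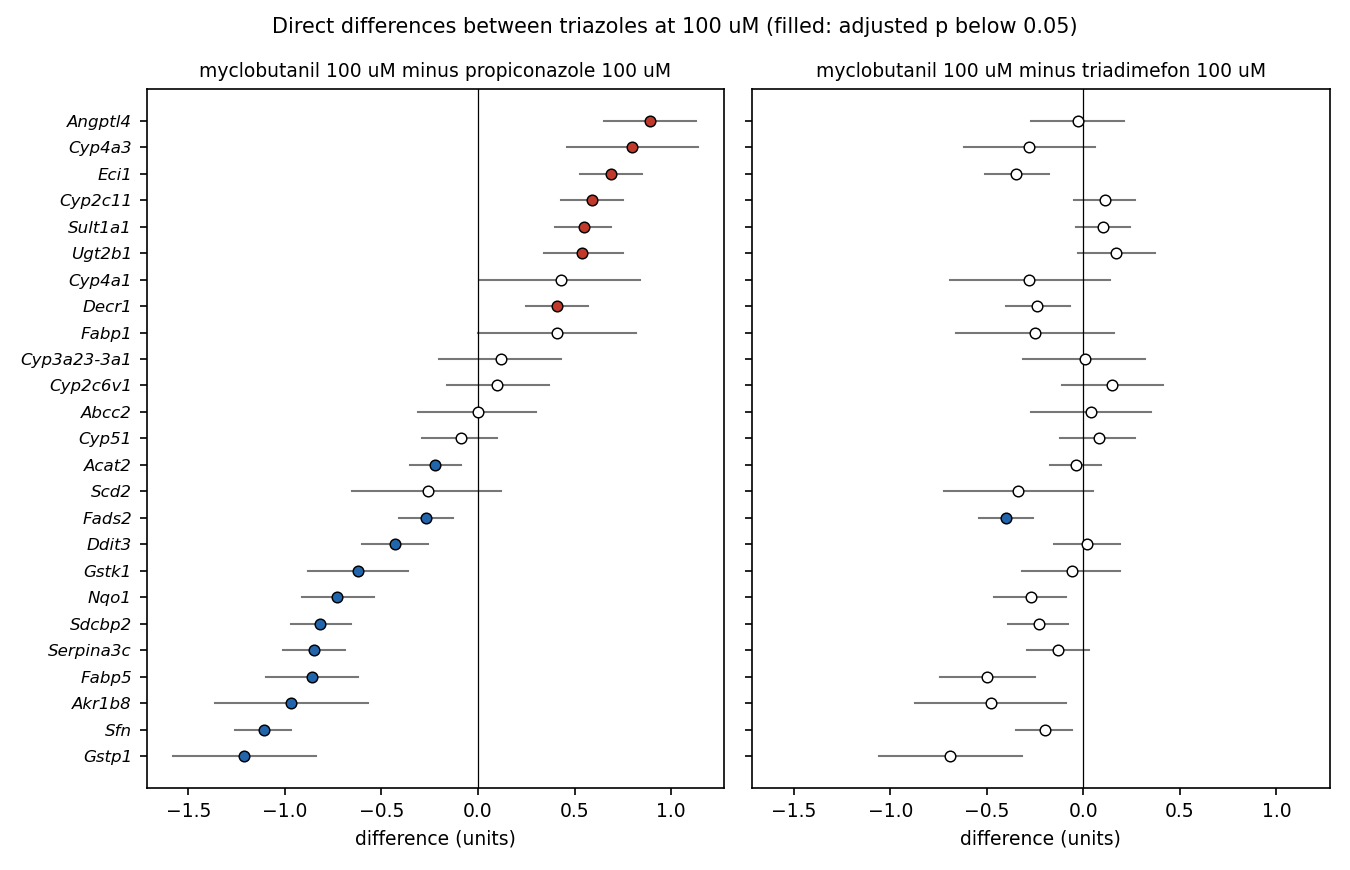
Differences between 100 uM myclobutanil and 100 uM propiconazole (left) or triadimefon (right) in normalized units, with 95% intervals of the fit; filled points have an adjusted p below 0.05. Against propiconazole Gstp1 (-1.21) and Angptl4 (0.89) mark the ends, and against triadimefon only Fads2 (-0.40) is filled.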

How the data were processed

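The table holds 1 value per probe set and array on a log-like score scale made by the authors, as deposited; its base, background correction and summary method are not given in the sources used here. Per the labels' protocols, total RNA that passed absorbance and ribosomal RNA checks was primed with oligo-dT and labelled with biotin. Arrays hold no read depth, so their number limits the precision. From these values, arrays were quantile-normalized, and of 31099 probe sets 20826 named 1 gene, 436 several and 9780 none. The probe set with the highest mean stood for a gene, and 10490 of 14217 genes lay above the array median in at least 2 arrays and were tested. limma 3.58.1 in R 4.3.3 (lmFit, eBayes) was fitted on all 35 arrays with the code as a fixed block, Benjamini-Hochberg adjusted within each comparison, two-sided, threshold 0.05, with 95% intervals. The code was taken as pairing the arrays because deviations of same-coded DMSO and myclobutanil arrays correlated at 0.704, 0.396 and 0.565 (Rs256, Rs293, Rs304). Members, gene lists, the block and quantile normalization were all chosen with earlier results of these data known, and the block and the normalization each raise the counts several-fold. Named genes were the 15 largest rises and falls with 1 sign in the 3 codes, up to 6 called members per list with the lowest p, well-known uncalled members and a fixed set. Alternatives were other scalings, no block, fewer arrays, array weights, each probe set as a feature, other filters and each array or code left out. Promoters come from RefSeq (GRCr8); the build of the array design was not used.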

Additional observations from a re-analysis of the deposited data

Results flagged for a closer look

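Probe sets that the annotation used here pairs with no gene were tested as well. Of 3407 such probe sets tested in a limma fit with the block, 83 were higher (2.44%) and 142 lower (4.17%) with 100 uM myclobutanil than with DMSO. In the same fit 587 of the 14235 probe sets that name 1 gene were higher and 597 lower. The shares without a gene were thus no larger than those with 1 gene. The changes of the called probe sets without a gene ran from -1.27 to 1.05 units. They entered none of the comparisons because no gene could be named for them.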

How the results depend on the processing

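Most counts fell when a setting was changed. For 100 uM myclobutanil against DMSO (530 higher, 511 lower), the counts were 67 and 60 without the replicate block, 62 and 76 on the values as deposited, 72 and 94 with median centring, 59 and 65 with centring and scaling, and 4 and 4 on the values as deposited without the block. With only the 6 arrays compared they were 135 and 165, and with array weights 1794 and 1753, where the estimation of the weights did not reach its convergence tolerance. A difference of at least 0.2 units within each code, an alternative chosen after seeing the data, left 127 and 167. With a replicate left out they ran from 113 to 407 and from 128 to 475. The counts against propiconazole (744), triadimefon (1), 30 uM (70) and 10 uM (678) were 78, 0, 1 and 26 without the block, 91, 0, 0 and 57 on the values as deposited, and 98, 0, 0 and 55 with centring and scaling. With a code left out they ran from 56 to 503, 0 to 19, 0 to 26 and 62 to 604. Other filters, each probe set as a feature, and only DMSO with the myclobutanil doses kept the counts within 1.5 times. Hp (-0.14) became 0.04 as deposited with or without the block, 0.03 centred and 0.12 centred and scaled, Hpx (-0.16) 0.00 as deposited with or without the block and 0.07 centred and scaled, and Rbp4 (-0.21) 0.01 centred and scaled. The cause of these shifts was not tested. Of the 142 named genes called, 5 (Acat2, Acot4, Ces1d, Cyp4a3 and Scd2) were called under every alternative run, a criterion set after the data were seen.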
